A study of Saccharomyces cerevisiae with 3 samples.

Results

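The 50 genes described here act in meiosis and sporulation of budding yeast, from the master regulators of entry to the proteins of the spore wall. They were taken by name from a fixed list, and all 50 were found among the 6002 nuclear protein-coding genes of the RefSeq table. No measured value entered the rule that chose them, although the list was drawn up with earlier results of these data known. The data come from Saccharomyces cerevisiae of the strain BY4741, a haploid laboratory strain of mating type a with deletions in the auxotrophic marker genes HIS3, LEU2, MET15 and URA3, grown to mid-log phase in the rich glucose medium YEPD and fixed with formaldehyde for 20 minutes. Chromatin was cut with micrococcal nuclease, which digests the DNA between nucleosomes, and precipitated with an antibody against histone H3 trimethylated at lysine 4 (H3K4me3, 1 library) or dimethylated at lysine 4 (H3K4me2, 1 library). An input without antibody completes the 3 samples and has no values of its own here. All libraries share the strain, the medium and the fixation, and no sporulating cells were sampled.

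Diploid yeast cells that run out of nitrogen and fermentable sugar leave the mitotic cycle, recombine and segregate their chromosomes, and wrap the products in spores. The transcription factor Ime1 switches on the early genes of recombination, and the transcription factor Ndt80 switches on the middle genes of chromosome segregation and spore formation. In haploid cells in rich medium these genes are generally kept off, the early ones through the DNA-binding repressor Ume6 and its histone deacetylase Rpd3-Sin3, and many of the middle ones through Sum1 with Hst1 and Rfm1. In general H3K4me3 lies at the beginning of transcribed genes and H3K4me2 further into them, both placed by the methyltransferase Set1, which travels with RNA polymerase II. The deposited values are lists of peaks, regions enriched for a mark, and the question asked of them is where along these genes a peak lies although the cells were not in meiosis.

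The H3K4me3 list held 3714 peaks with 1644589 tags in them, and the H3K4me2 list held 2998 peaks with 1492318 tags. The total depth of each library is unknown, as reads outside peaks are not listed. Each mark has 1 library, so values have no replicate check and no p-value is printed. The 95% intervals on shares are exact (Clopper-Pearson); they cover counting error only and count each gene once, even where 1 peak spans a pair of genes. Of the marker genes mutated in BY4741, LEU2, MET17 (the table's name for MET15) and URA3 had no base under a peak of either mark. H3K4me3 covered 60.6% of HIS3 and H3K4me2 covered 0%.

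The starts of meiosis and sporulation genes were almost bare of both marks. The start window was the first 500 bp from the start codon, or the whole gene where it is shorter, and it was called marked with 50% or more of its bases under peaks. H3K4me3 marked 1 of 50 starts (2%, interval 0.0506 to 10.6), against 64.6% of all 6002 genes. H3K4me2 marked 4 of 50 (8%, interval 2.22 to 19.2), against 43.5% of all genes. Neither mark reached the limit at 46 of the 50 starts, against 30.3% of all genes. The 1 start with H3K4me3 was that of SMK1, a protein kinase gene of spore wall assembly, where a peak covered 50.2% of the window, just above the limit. H3K4me2 marked the same start (100%), together with those of SPO16 (91.4%), SPO73 (100%) and SPS100 (100%). The closest start below the limit was that of REC114, 47% of which lay under H3K4me2. At the remaining starts H3K4me2 covered no base, and H3K4me3 covered none at any start other than those of SMK1 and SPS100 (34.8%).

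Beyond the start, 40 of the 50 genes were free of both marks over their whole length, against 27.4% of all genes. Of the other 10, 6 carried both marks somewhere in the gene (IME4, SPO16, SPO22, SMK1, DTR1 and SPS100), NDT80 and PCH2 carried H3K4me3 alone, and REC114 and SPO73 carried H3K4me2 alone. Each mark was thus found in 8 genes (16%, interval 7.17 to 29.1), against 66.5% of all genes for H3K4me3 and 51.5% for H3K4me2. The longest genes with no base under either mark were MSH5 (2706 bp) and MSH4 (2637 bp), whose proteins form a heterodimer that stabilises crossover intermediates. The genes run from 362 to 3018 bp with a median of 1418 bp, against a median of 1200 bp over all genes.

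**Figure D1:**
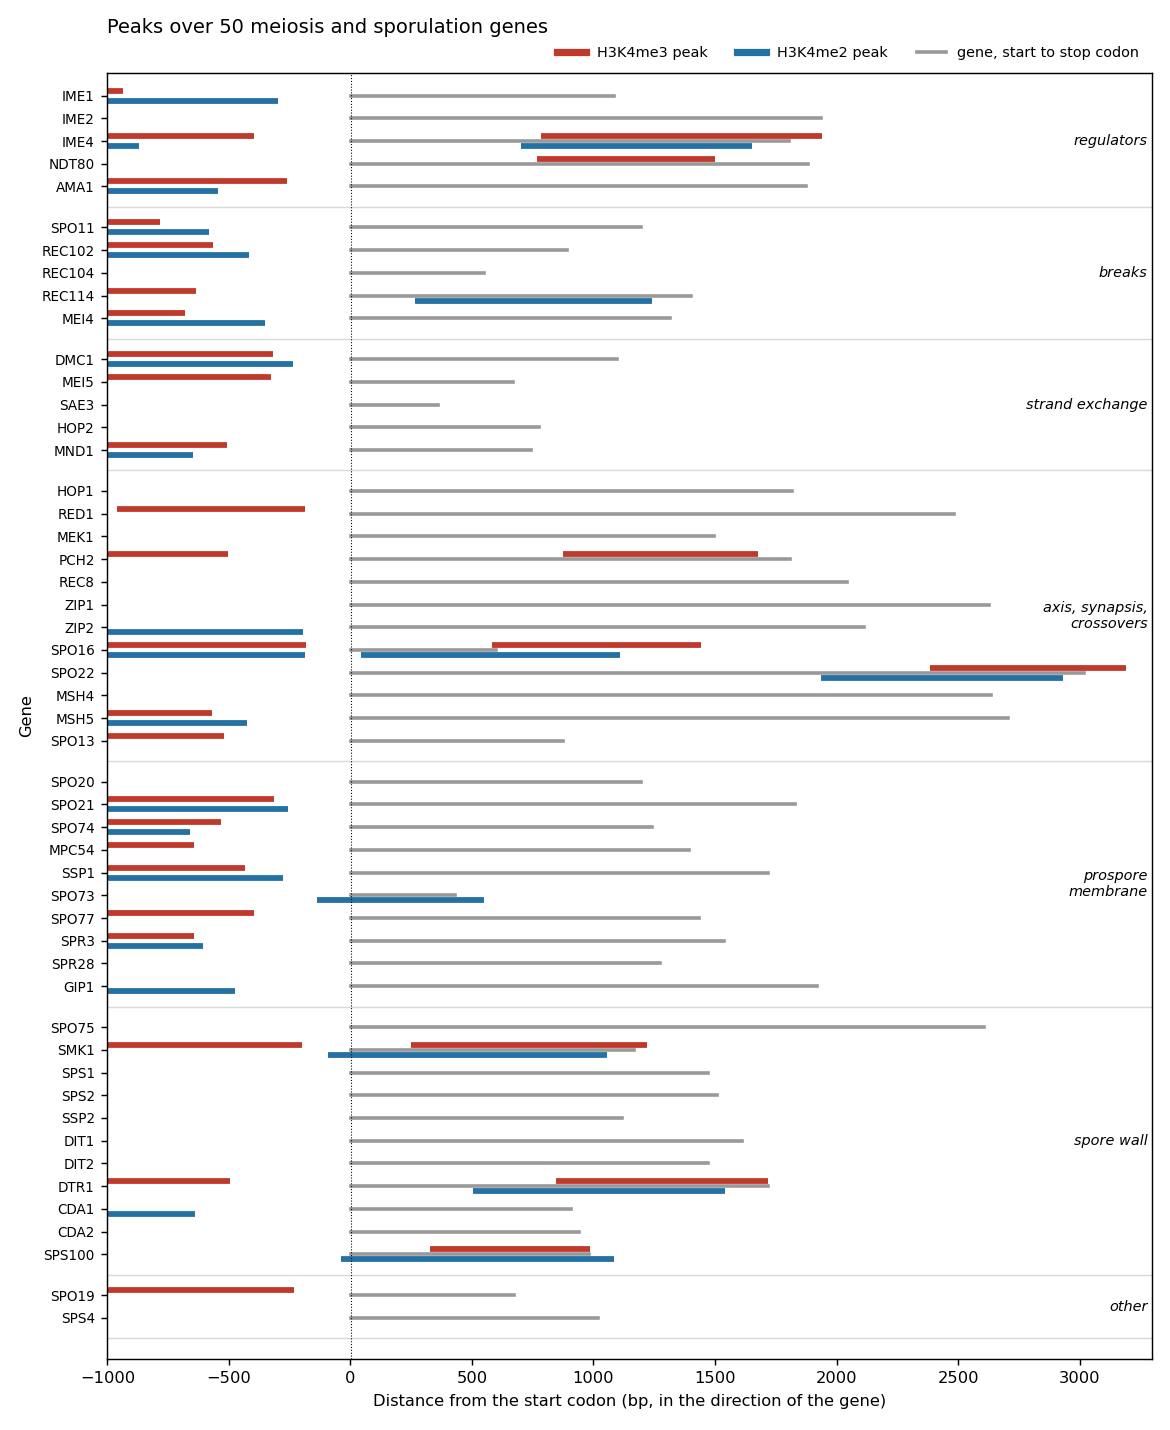
Each row is 1 of the 50 genes drawn to scale from its start codon, with H3K4me3 peaks in red above the gene and H3K4me2 peaks in blue below it; the x axis is the distance from the start codon in bp, and peaks are drawn that touch the gene or the 2000 bp before it, of which 1000 bp are shown. The space just after the start codon is empty in nearly every row, and 10 genes have a peak inside.

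The body and the end of the genes departed less from the rest of the genome than the start did. The body was taken as the bases between the first and the last 500 bp of genes of at least 1500 bp, and the end as the last 500 bp of genes of at least 1000 bp. H3K4me3 covered at least 50% of the body in 4 of 21 genes (19%, interval 5.45 to 41.9), against 19.4% of all 2248 such genes. It covered at least 50% of the end in 5 of 37 (13.5%, interval 4.54 to 28.8), against 15.9% of all 3592 such genes. Both shares lay close to those of all genes, although only 1 start was marked. H3K4me2 covered the body in 2 of 21 (9.52%, interval 1.17 to 30.4), against 36.4% of all genes, and the end in 5 of 37 (13.5%, interval 4.54 to 28.8), against 32%. At the start codon itself, 0 of the 37 meiosis and sporulation genes of at least 1000 bp lay under H3K4me3 and 1 under H3K4me2 (2.7%), against 64.9 and 23.4% of all genes of that length. At the stop codon 3 of the 37 genes (8.11%) and 8.21% of all genes were under H3K4me3, while H3K4me2 covered 0 of 37 and 18.9% of all genes.

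**Figure D2:**
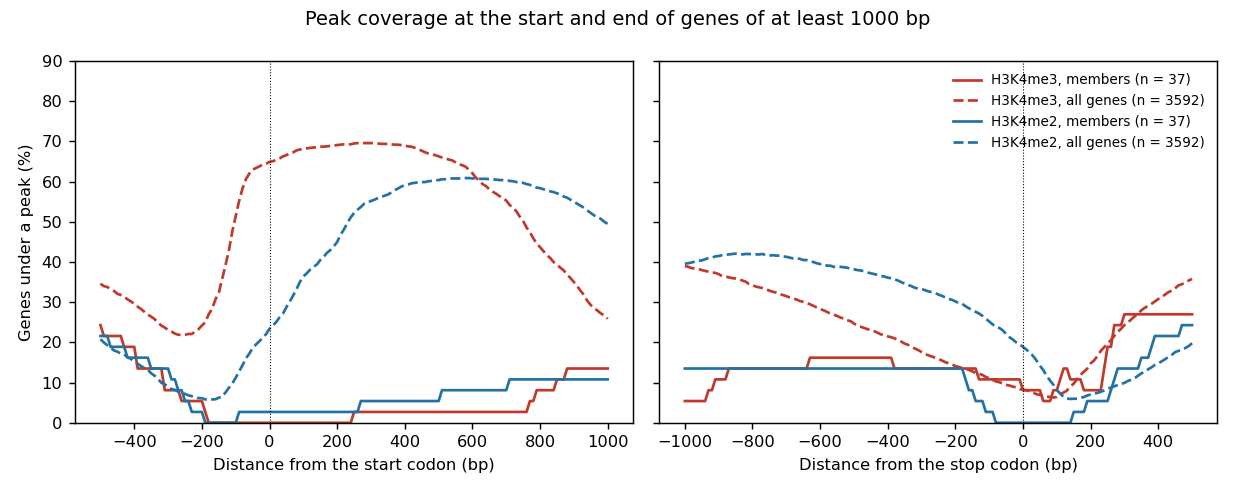
Percentage of genes of at least 1000 bp under a peak at each distance from the start codon (left) and the stop codon (right), for 37 meiosis and sporulation genes (solid lines) and all 3592 genes (dashed lines), H3K4me3 in red and H3K4me2 in blue. The solid lines stay near the bottom where the dashed lines peak after the start codon. At the stop codon the solid H3K4me3 line comes close to the dashed H3K4me3 line, while the solid H3K4me2 line stays below its dashed line.

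With the peaks as deposited, the share of bare-start genes that held H3K4me3 further in was higher in the 50 genes than over all genes. The share for H3K4me2 was lower, but its interval holds the share of all genes. Of 47 genes longer than the start window whose start had less than 50% H3K4me3, 7 had an H3K4me3 base further in (14.9%, interval 6.2 to 28.3), against 4.78% of all 1528 such genes. The 7 were IME4, NDT80, PCH2, SPO16, SPO22, DTR1 and SPS100, and they make up 9.59% of the 73 genes of this kind in the genome. The interval begins just above the share of all genes. In SPS100 the peak begins inside the start window and covers 34.8% of it. With no base of the start under a peak, the count was 6 of 46, a setting not computed over all genes. SPO16 enters with the edge of a peak over SPO12, and with the summit in the gene the count was 6 of 47 (12.8%, interval 4.83 to 25.7), against 4.12%. With peaks of a score of at least 100 alone it was 4 of 47 (8.51%, interval 2.37 to 20.4), against 1.92% of all genes, since the H3K4me3 peaks of SPO22 (74.18), DTR1 (94.61) and SPS100 (67.84) score less. With peaks of a uniform 500 bp centred on the summits the direction turned, at 7 of 48 (14.6%) against 24.1% of all genes, as the shorter peaks leave more starts bare. Among genes with a bare start, H3K4me3 covered at least 50% of the body in 4 of 21 (19%), against 2.23% of all such genes, and of the end in 4 of 36 (11.1%), against 4.2%. For H3K4me2 the count was 4 of 45 (8.89%, interval 2.48 to 21.2), namely IME4, REC114, SPO22 and DTR1, against 17.4% of all genes with a bare start. The REC114 peak covers 47% of the start window, and with no base of the start under a peak the count was 3 of 44. The H3K4me2 body share (2 of 21, 9.52%) and end share (4 of 36, 11.1%) lay beside 12.9 and 13.2% of all genes with a bare start.

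Among the regulators, peaks lay inside IME4 and NDT80 and upstream of IME1, while IME2 and AMA1 were bare from start to stop. IME4 (YGL192W, chromosome VII, 142246 to 144048, plus strand) encodes an RNA methyltransferase needed for entry into meiosis. Its H3K4me3 peak ran from 143029 to 144184, that is from 784 to 1939 bp after the start codon, with its summit 285 bp before the gene's end, 499 tags and a fold enrichment of 3.38. The fold is the authors' value for a peak and is used within its own list; this one was higher than 71.6% of the H3K4me3 peaks. Its H3K4me2 peak lay further towards the start, from 703 to 1654 bp, with 395 tags and a fold of 2.29, higher than 10.5% of the H3K4me2 peaks. H3K4me3 covered 100% of the end window and H3K4me2 covered 70.2%, while 0% of the start window lay under either. The annotation places the antisense RNA RME2 (YNCG0006C, 141898 to 144120, minus strand) across the whole of IME4, and this transcript is known to block IME4 expression in haploid cells. Seen along RME2, H3K4me3 ran from -64 to 1092 bp relative to its start and covered 100% of its first 500 bp, and H3K4me2 ran from 222 to 1173 bp. The peaks themselves have no strand.

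NDT80 (YHR124W, chromosome VIII, 356561 to 358444, plus strand) had an H3K4me3 peak in its body, from 769 to 1498 bp after the start codon, with 289 tags and a fold of 3.09. Its summit lay 1210 bp from the start codon and 674 bp from the end. H3K4me2 covered none of the gene, and the nearest H3K4me2 peak was 2084 bp upstream of the start codon. No transcript annotated as antisense or other non-coding RNA overlaps NDT80 in the table used.

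IME1 (YJR094C, chromosome X, 604569 to 605651, minus strand) had no base under a peak from start to stop, and both marks lay upstream over the non-coding RNA IRT1 (YNCJ0028C, 605936 to 607424, minus strand). IRT1 is transcribed towards IME1 through its promoter and is known to repress it in haploid cells. Its H3K4me3 peak lay from 261 to 839 bp along the transcript, with 214 tags and a fold of 2.3, and covered 48% of its first 500 bp. The H3K4me2 peak was longer, from 153 to 1474 bp, with 637 tags and a fold of 2.7, and covered 88.8% of the transcript and 97% of its last 500 bp. It ended 300 bp before the IME1 start codon. These were the only 2 of the peaks upstream of any of the 50 genes whose summits lay outside every protein-coding gene. Over the 2000 bp before the 50 genes there were 38 H3K4me3 peaks, of which 37 had the summit in another gene. Of 29 H3K4me2 peaks, 25 had it in another gene and 3 in the gene itself (SPO73, SMK1 and SPS100). In the whole lists 2.07% of H3K4me3 and 1.47% of H3K4me2 summits lay outside protein-coding genes.

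**Figure D3:**
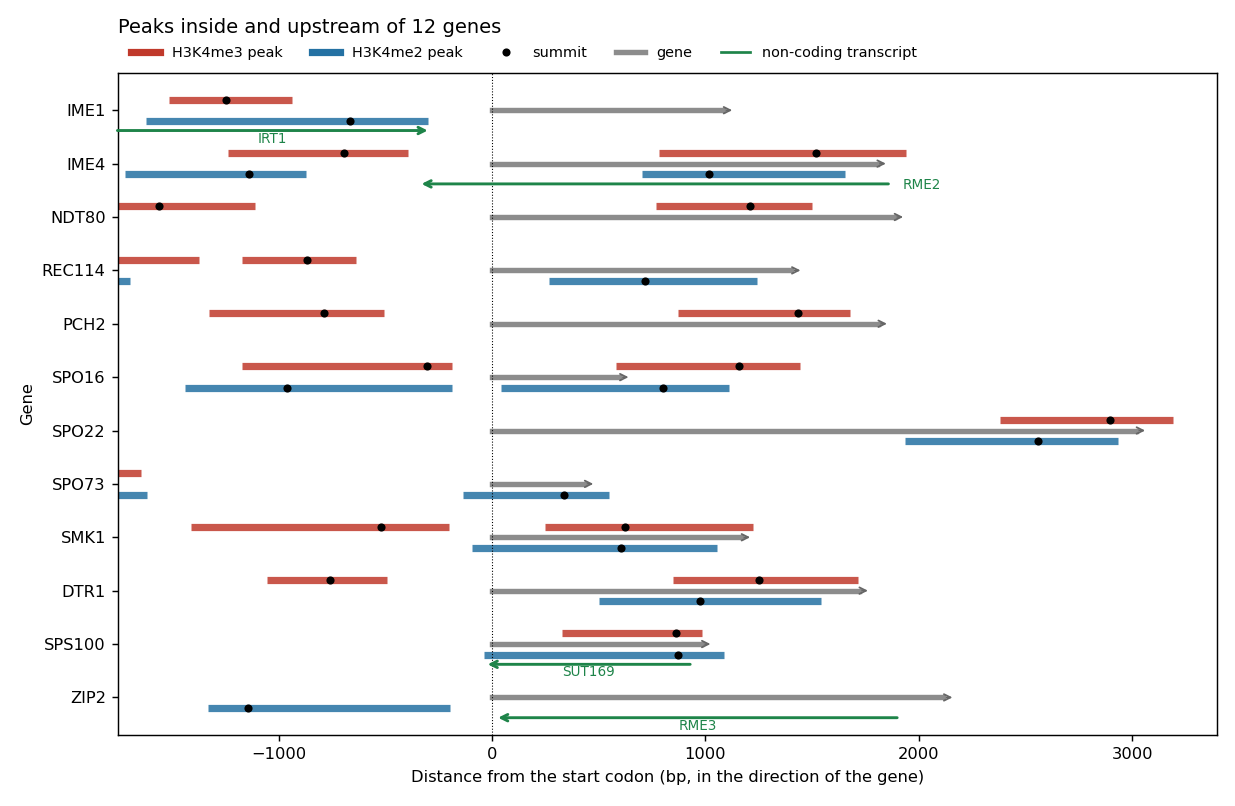
Peaks (red above, H3K4me3; blue below, H3K4me2) with their summits (black dots) along the 10 genes with a peak inside and along IME1 and ZIP2, whose neighbourhood holds a non-coding transcript; the x axis is the distance from the start codon in bp, grey arrows are genes and green arrows are annotated non-coding transcripts, and all are cut at the left edge. In IME4, SPO22 and DTR1 the red bar lies nearer the end of the gene than the blue one, and over IRT1 the blue bar reaches closer to IME1 than the red one.

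Early recombination genes were bare at the start in 21 of 22 cases, against 30.3% of all genes. A peak lay somewhere in 4 of the 22, while only 27.4% of all genes had no base under either mark. Of the 5 genes for the formation of double-strand breaks, SPO11 (whose protein makes the breaks), REC102, REC104 and MEI4 had no base under either mark. REC114 (YMR133W), whose protein is needed for Spo11 to cut, carried H3K4me2 from 266 to 1240 bp after the start codon, with 366 tags and a fold of 2.25, higher than 7.94% of that list. H3K4me3 covered none of REC114. All 5 genes of strand exchange were free of both marks from start to stop. They are DMC1, the meiotic recombinase, its cofactors MEI5 and SAE3, and HOP2 and MND1, whose proteins act together in homologue pairing. The upstream gene PDA1 carried both marks, and its H3K4me3 peak stopped 319 bp and its H3K4me2 peak 235 bp before the DMC1 start codon.

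Among the 12 genes of the chromosome axis, synapsis and crossovers, PCH2, SPO16 and SPO22 held peaks. The bare ones include HOP1, RED1 and the kinase gene MEK1 of the axis, REC8, the meiotic cohesin subunit, and ZIP1, which encodes the transverse filament protein of the synaptonemal complex. PCH2 (YBR186W), an ATPase that removes Hop1 from chromosomes, had an H3K4me3 peak from 874 to 1677 bp after the start codon, with 279 tags and a fold of 2.76, and no H3K4me2. It covered 53.8% of the body and 73.8% of the end window. SPO22 (YIL073C, chromosome IX, 222937 to 225954, minus strand), also known as ZIP4, was the longest of the 50 genes at 3018 bp, and its peaks lay at the far end. Its H3K4me3 peak ran from 2383 to 3190 bp, 172 bp past the stop codon, with 277 tags and a fold of 2.31. Its H3K4me2 peak ran from 1938 to 2932 bp, with 391 tags and a fold of 1.88. Both were weak within their lists, above 2.75% of H3K4me3 folds and 0.1% of H3K4me2 folds. SPO16 (YHR153C), whose protein acts in crossover formation with Spo22, is convergent with SPO12 at a distance of 130 bp, and both its peaks had their summits in SPO12 and covered the start of that gene. Only 2.51% of SPO16 lay under H3K4me3, while H3K4me2 reached over 92.8% of it. ZIP2, a further synapsis gene, is overlapped by the antisense RNA RME3 (YNCG0001C, 33109 to 35013), and neither mark covered any base of RME3 or of ZIP2.

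Prospore membrane genes were free of both marks over their whole length in 9 of 10 cases, against 40 of the 50 genes and 27.4% of all genes. They build the membrane that grows from the spindle poles around each nucleus and include SPO21 and MPC54 of the meiotic spindle pole, the SNARE gene SPO20, the septin genes SPR3 and SPR28, and GIP1, a phosphatase subunit. The exception was SPO73, a gene of 432 bp that lay wholly under an H3K4me2 peak. That peak ran from -137 to 548 bp relative to the start codon, with 257 tags, a fold of 2.49 and the summit at 336 bp. H3K4me3 came no nearer than 1645 bp to the SPO73 start codon. SPO19 and SPS4, sporulation genes of less defined function, were bare.

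Spore wall genes held peaks in 3 of 11 cases, SMK1, DTR1 and SPS100, each with both marks. Of all genes, only 27.4% had no base under either mark. SMK1 (YPR054W, chromosome XVI, 666280 to 667446, plus strand) had an H3K4me3 peak from 250 to 1222 bp after the start codon, with 399 tags and a fold of 2.66. Its H3K4me2 peak ran from -93 to 1054 bp relative to the start codon, with 584 tags and a fold of 3.17, higher than 95.9% of the H3K4me2 peaks. The gene therefore had H3K4me3 over 100% of its end window and over 50.2% of its start. DTR1 (YBR180W, chromosome II, 589741 to 591459, plus strand), a transporter gene for the dityrosine precursor of the outer wall, was bare at the start. Its H3K4me3 peak lay from 847 to 1716 bp, with 314 tags and a fold of 2.35, and its H3K4me2 peak from 503 to 1542 bp, with 434 tags and a fold of 2.07. SPS100 (YHR139C, chromosome VIII, 378219 to 379199, minus strand), a late gene of wall maturation, lay wholly under an H3K4me2 peak of 465 tags and a fold of 2.73. Its H3K4me3 peak covered the part from 327 to 985 bp, with 211 tags and a fold of 2.26. The table places the antisense RNA SUT169 (YNCH0011W, 378254 to 379237, plus strand) over SPS100. H3K4me3 and H3K4me2 each covered 100% of the first 500 bp of SUT169. Bare from start to stop were DIT1 and DIT2, which make dityrosine, the chitin deacetylase genes CDA1 and CDA2, SPO75, SSP2, SPS2 and the kinase gene SPS1.

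Early recombination genes and spore wall genes had starts marked at shares whose intervals overlap. H3K4me3 marked 0 of 22 early starts (0%, interval 0 to 15.4) and 1 of 11 spore wall starts (9.09%, interval 0.23 to 41.3). H3K4me2 marked 1 of 22 (4.55%, interval 0.115 to 22.8) and 2 of 11 (18.2%, interval 2.28 to 51.8). Over all genes H3K4me3 marked 64.6% and H3K4me2 43.5% of starts. Any base of either mark was found in 4 of 22 early genes (18.2%, interval 5.19 to 40.3) and in 3 of 11 spore wall genes (27.3%, interval 6.02 to 61). Of all genes, only 27.4% had no base of either mark. All 3 spore wall genes with peaks carried both marks, against 2 of the 4 early genes. Of these 2, SPO16 had both peak summits in SPO12, and only 2.51% of it lay under H3K4me3. The only early start with H3K4me2 was also that of SPO16. The median distance from the start codon to the nearest H3K4me3 peak was 723 bp in early genes (quartiles 513 and 2382 bp) and 1723 bp in spore wall genes (quartiles 808 and 2052 bp). For H3K4me2 the medians were 1382 bp and 1654 bp. The groups overlapped in each of these distances. Over all genes the medians were 0 bp for H3K4me3 and 284 bp for H3K4me2, with a start codon under a peak counted as 0 bp.

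Where both marks lay in a gene, their order was the reverse of that in most genes. The centre of the H3K4me3-covered bases lay nearer the gene's end than the centre of the H3K4me2-covered bases in 6 of 6 genes (interval 54.1 to 100%), against 4.07% of all 2727 genes with both marks. The distance, H3K4me3 minus H3K4me2, was 115 bp in IME4, 163 bp in SPS100, 181 bp in SMK1, 259 bp in DTR1, 266 bp in SPO22 and 270 bp in SPO16, with a median of 220 bp against -127 bp over all genes. In genes that like 5 of these 6 had less than 50% H3K4me3 over the start, the reversed order was frequent in the whole genome, at 78% of 59 genes, of which the 5 make up 8.47%. So the 5 of 5 here stand beside a high share of all genes with such a start. With peaks of a score of at least 100 alone, 3 genes kept both marks and all 3 had this order. In SPS100 and SPO16 the H3K4me2 peak covered nearly all of the gene, which places its centre near the middle. The value of SPO16, the largest, rests on the 2.51% of the gene under the edge of the H3K4me3 peak over SPO12. Without SPO16 the count was 5 of 5 and the median 181 bp. Both summits lay inside the gene in the 5 genes other than SPO16. The H3K4me3 summit was nearer the end in 4 of these 5, by 501 bp in IME4, 339 bp in SPO22, 276 bp in DTR1 and 19 bp in SMK1, and by -9 bp in SPS100, against 10.5% of all 2438 genes with both summits inside. Of the 46 genes with such summits and less than 50% H3K4me3 over the start, 73.9% had this order. Along RME2 and SUT169 the difference was -151 and -182 bp; these are the same peaks as in IME4 and SPS100 read on the other strand, so the sign turns by construction. Along IRT1, which overlaps none of the 50 genes, it was -264 bp. Of the 4 antisense RNAs away from the 50 genes, YNCB0008W (-130 bp) and YNCP0002W (-140 bp) had the same sign as IRT1, and TBRT (144 bp) and YNCM0001W (1438 bp) the opposite one. The value of YNCM0001W rests on the 1.82% of it under the edge of an H3K4me2 peak whose summit lay 560 bp before the transcript. The table holds 7 antisense RNAs in all, and each mark covered 50% or more of the first 500 bp in 5 of them, RME2 and SUT169 included. Over all protein-coding genes, with windows counted from the start codon, 64.6% of starts had H3K4me3 and 43.5% had H3K4me2.

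**Figure D4:**
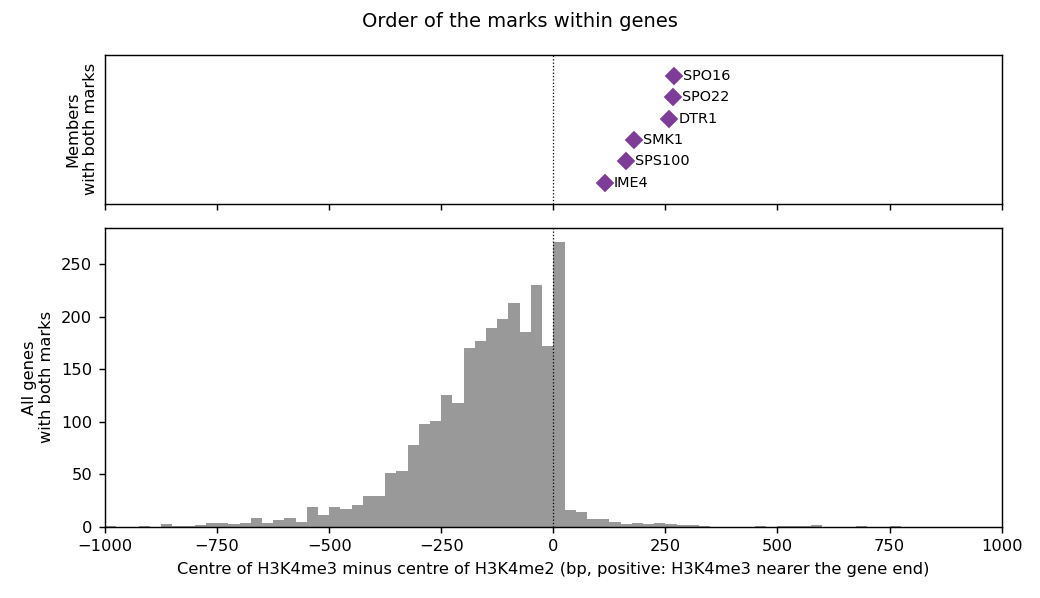
Distance between the centres of the bases under H3K4me3 and under H3K4me2 within a gene, in bp; top, the 6 meiosis and sporulation genes with both marks, bottom, a histogram in steps of 25 bp of all genes with both marks, whose column at 0 includes the 240 genes with equal centres, shown from -1000 to 1000 bp. The 6 genes lie between 115 and 270 bp, right of the median of -127 bp over all genes.

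Most H3K4me3 peaks within the 50 genes lay away from any protein-coding start. Of the 8 H3K4me3 peaks over the 50 genes, 5 touched no start window of any protein-coding gene (those in IME4, NDT80, PCH2, SPO22 and DTR1), against 2.67% of the whole list. Of the 8 H3K4me2 peaks, 3 touched none (IME4, SPO22 and DTR1), against 4.8%. Since the genes' own starts are mostly bare, a peak within them is less likely than others to touch a start, and the shares describe these peaks only. The peaks over the 50 genes had a median of 302 H3K4me3 tags and a fold of 2.71, against 391 tags and 3.09 in the whole list, and 401 H3K4me2 tags and a fold of 2.39, against 453 tags and 2.64.

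The neighbours of the 50 genes were marked at shares close to those of all genes. Of the 92 genes next to them, with the 50 themselves left out, 55 carried H3K4me3 at the start (59.8%, interval 49 to 69.9), against 64.8% of the neighbours of all genes. H3K4me2 lay over 38 of these 92 starts (41.3%, interval 31.1 to 52.1), against 43.7%. Of the 49 genes without H3K4me3 at the start, 39 had a marked gene on at least 1 side (79.6%), against 76.2% of all 2122 genes with a bare start, and 15 on both sides (30.6%), against 34.7%. Both shares lay near those of all such genes. Those with a marked gene on both sides include IME1, REC102, RED1, MSH5 and SPO77. SPO77, for example, follows the ribosomal protein gene RPP0, whose H3K4me3 peak (694 tags, fold 3.52) ended 399 bp before the SPO77 start codon. The 10 with no marked neighbour were IME2, AMA1, HOP2, HOP1, MEK1, ZIP1, CDA1, CDA2, SPS100 and SPS4. By orientation, H3K4me3 lay at 14 of 24 divergent upstream neighbours (58.3%), 15 of 21 tandem upstream (71.4%), 11 of 19 convergent downstream (57.9%) and 16 of 30 tandem downstream (53.3%), against 67, 65.8, 64.9 and 63.3% over all genes. The neighbours of early recombination genes carried H3K4me3 in 25 of 42 cases (59.5%) and those of spore wall genes in 10 of 17 (58.8%). H3K4me2 lay at 22 of 42 (52.4%, interval 36.4 to 68) and 4 of 17 (23.5%, interval 6.81 to 49.9), which overlap.

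**Figure D5:**
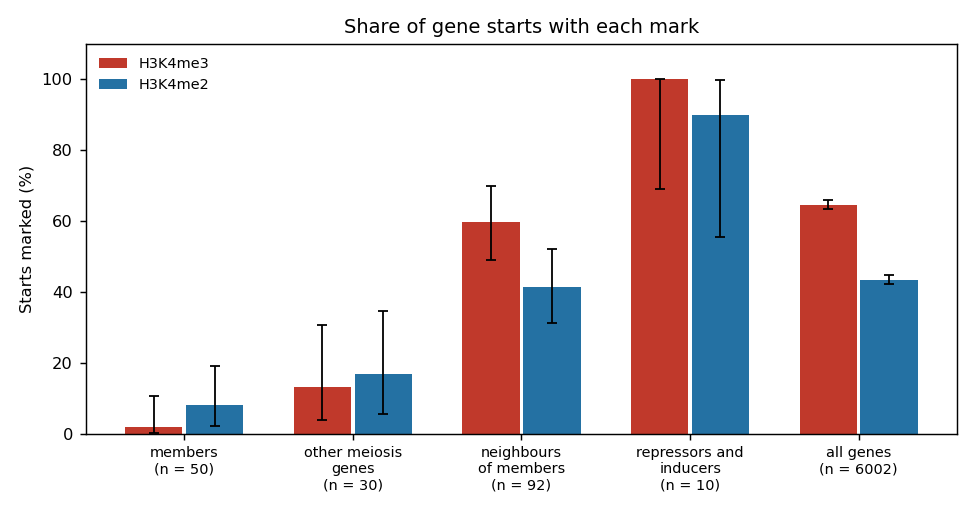
Percentage of gene starts with H3K4me3 (red) and H3K4me2 (blue) over at least 50% of the start window, with exact 95% intervals as error bars; groups are the 50 meiosis and sporulation genes, 30 further genes of the same processes, 92 neighbours of the 50, 10 repressors and inducers, and all 6002 genes. H3K4me3 reaches 2% in the 50 genes and 59.8% in their neighbours.

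Bare starts lay in stretches without peaks that several of these genes share. The nearest H3K4me3 peak lay a median of 784 bp from the start codon in the 49 genes with a bare start, against 1128 bp over all genes with a bare start, and was upstream in 35 of the 49 (71.4%, interval 56.7 to 83.4), against 58.9% of all such genes. Over the 500 bp before the start codon, H3K4me3 covered at least 50% in 4 of 50 genes (RED1, SPO16, SMK1 and SPO19), against 29.2% of all genes. H3K4me2 did so in 3 of 50 (DMC1, ZIP2 and SPO16), against 9.88%. The divergent pair HOP1 and SPO22 shared a stretch of 6640 bp without H3K4me3 and of 17134 bp without H3K4me2. The divergent pair DIT1 and DIT2, whose products act in succession, lay in a stretch of 5003 bp without H3K4me3 and 4437 bp without H3K4me2. SPS1 and SPS2, in tandem, shared 4610 and 11892 bp, and CDA1 and CDA2 shared 12139 and 11031 bp. Among stretches with a peak at both ends, the longest were 16361 bp without H3K4me3 around ZIP1 and 22135 bp without H3K4me2 around the spore wall gene SPO75. No H3K4me2 peak followed the DMC1 start codon on its chromosome, so the stretch there was given no length and was not ranked. At the other extreme, SMK1 had H3K4me3 peaks 200 bp upstream and 249 bp downstream of its start codon.

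Other genes of meiosis and sporulation were also mostly bare, and the repressors of the pathway were marked. Of 30 further genes, H3K4me3 marked the start of 4 (13.3%, interval 3.76 to 30.7), namely REC107, SPO71, CRR1 and SPR6, and H3K4me2 that of 5 (16.7%, interval 5.64 to 34.7), namely REC107, NDJ1, SMA2, CRR1 and SPR6. REC107, also known as MER2, encodes a break formation protein whose transcript is spliced in meiosis, and both marks covered 100% of it. H3K4me2 covered 100% of the end window and 0% of the start in RIM4, GMC1 and DON1, with no H3K4me3 in these genes. Of all 1718 genes with an end window and a start bare of H3K4me2, 13.2% had it over at least 50% of the end. In the 3 of the 30 genes with both marks the difference of centres was 0 bp (REC107), -95 bp (CRR1) and -17.5 bp (SPR6). H3K4me3 covered 100% of the start in all 3, unlike the 5 genes above, so the orders are not compared. Among 10 genes that repress or induce the programme from vegetative cells, H3K4me3 marked all 10 starts, and H3K4me2 marked 9 (90%), with RPD3 at 25.6% the exception. For the 30 and for the 10 genes alike, the shares of all genes to set beside the counts of marked starts are 64.6% for H3K4me3 and 43.5% for H3K4me2. The 10 genes include UME6, SIN3, SUM1, HST1, RFM1 and RME1, the repressor of IME1 in haploid cells.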

How the data were processed

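Chromatin of BY4741 cells was analysed in 3 samples, 1 for each mark and 1 input, grouped by title. The submitters' processing notes name CASAVA 1.8.2, MACS 1.4.2 and the build sacCer3. The aligner, the settings and the control used in calling peaks were not given in the sources used here. Each library has 1 peak list that the authors deposited. Tags per peak are a raw count, per the file headers. The deposited fold is a ratio to a background the headers do not name. The p-value column that the authors deposited starts at 50.02 and was read as a score of -10 log10 p.

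Genes came from the RefSeq table of R64, the assembly behind sacCer3, with 6477 genes and spans that run from start to stop codon. Strand was read from the W or C in systematic names. Window coverage, centres and neighbours (the nearest protein-coding gene on each side) were computed from the peak intervals in Python 3.11.15 (numpy 2.4.6; pandas 2.3.3; scipy 1.17.1; figures, matplotlib 3.10.9), with the code tested on simulated peaks. Genes described in full have a peak base in the gene or are the 2 longest with none; IME1 and ZIP2 were added for their non-coding transcripts after values were seen. The members, the role lists, the other lists and the windows were chosen with earlier results of these data known. Promoter motifs, though planned, were not analysed here. Alternatives were other coverage limits, peak filters, peak widths and windows, as well as 6 settings for the order of marks that were added after seeing the data.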

Additional observations from a re-analysis of the deposited data

How the results depend on the processing

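No paired analysis was possible because each mark has 1 library and no result comes from a test. Of 145 recomputed values for 17 counts, 91 stayed within 1.5 times of the reported count and 54 did not. The low number of marked starts held under every setting tried: H3K4me3 lay over 0 to 2 of 50 starts while the share of all genes ran between 34.5 and 65.7%. Values outside 1.5 times follow; beyond what each setting removes by construction, the cause was not tested. For H3K4me3 at the start (reported 1 of 50, in a spore wall gene), the count was 2 with limits of 25% or 1 base and with a 1000 bp window, and 0 with 75%, a 300 bp window, 500 bp peaks and peaks at or above the median fold, in all 50 and in spore wall genes alike; with each gene cut into 3 equal parts it was 0 of 50. For H3K4me2 at the start (4 of 50), median-fold peaks gave 2 and 500 bp peaks 1. In early genes (1 of 22) limits of 25% or 1 base and the 1000 bp window gave 2, and median-fold and 500 bp peaks 0. In spore wall genes (2 of 11), 500 bp peaks gave 0. The H3K4me3 body count (4 of 21) was 0 with 75% or 500 bp peaks and 2 with median-fold peaks. The H3K4me2 body count (2 of 21) was 1 with 75%, 0 with median-fold peaks and 7 of 50 with 3 equal parts. The H3K4me3 end count (5 of 37) was 3 with scores of at least 100 or equal numbers of peaks and 1 with median-fold peaks. The H3K4me2 end count (5 of 37) was 2 with 75%, 3 with scores of at least 100, 1 with median-fold or 500 bp peaks and 8 of 50 with 3 equal parts. Genes with any H3K4me3 base (8) numbered 5 with scores of at least 100 or equal numbers and 3 with median-fold peaks. For H3K4me2 (8) they numbered 5 with scores of at least 100 and 2 with median-fold peaks. Bare starts with H3K4me3 further in (7 of 47) numbered 4 with scores of at least 100 or equal numbers and 3 with median-fold peaks. For H3K4me2 (4 of 45) they numbered 2 with scores of at least 100, 0 with median-fold peaks and 7 of 48 with 500 bp peaks. Of the 98 neighbours, members included, 55 had H3K4me3 and 38 had H3K4me2; median-fold peaks gave 32 and 19, 500 bp peaks 13 for H3K4me2, and a window of 500 bp on each side of the start 22 for H3K4me2. The order of marks (6 of 6) was 3 of 3 with scores of at least 100 and with equal numbers; with median-fold peaks no gene kept both marks, so no value was had.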
